A study of Gallus gallus with 4 samples.

Results

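The pulp fibroblasts of embryonic chicken feathers plucked at day 12 of incubation are collagen-expressing cells of the core of the growing feather. They were taken from 1 droplet library of whole cells as barcodes with at least 300 genes, at most 10% mitochondrial UMIs (unique molecular identifiers, each standing for 1 captured transcript), at least 5 UMIs summed over COL1A1, COL1A2, COL5A2 and COL6A3, and at most 2 UMIs summed over the epithelial genes GATA3 and KRT5. This rule found 861 barcodes of 6208 kept in the library (13.9%, exact 95% interval 13.0 to 14.8), and of 50511 kept in the series. Measured values chose these barcodes, so their number and the genes of the rule are a description.

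The series profiled dorsal midline feathers of White Leghorn chicken embryos in 4 libraries, 1 in each group, with no genetic change or agent in any of them. The plucked feathers of day 12 (Hamburger and Hamilton stage 38) and the feathers left in a dissected piece of skin of the same day and stage were digested with Pronase into whole cells. The plucked feathers of day 13 (stage 39) and day 14 (stage 40) were homogenised into nuclei. How many embryos each library pools is not given in the sources used here, and with no replicates no value below has a test; intervals cover counting error only.

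A feather grows as an epithelial cylinder around a mesenchymal core, the pulp, which carries the vessels and nerves that feed it and is withdrawn as the feather matures. Pulp and epithelium exchange signals of the WNT, BMP, hedgehog and retinoic acid families, and those signals are known to guide the growth and branching of the feather. Fibroblasts build the extracellular matrix of the pulp and are a source of several of the signals.

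The members held 4220654 UMIs in all, with a median of 4601 UMIs and 1915 genes per barcode, against a median of 9446 UMIs in the 5347 other kept barcodes. The same rule found 2308 of 5411 kept barcodes (42.7%) in feathers in skin, 733 of 19457 (3.77%) in the nuclei of day 13 and 530 of 19435 (2.73%) in those of day 14. Globin genes took 0.109% of the members' UMIs, but 26.1% and 16.0% of those in the nuclei of day 13 and day 14, and levels are therefore given as CPM (a gene's UMIs per 1000000 UMIs of all genes but mitochondrial and globin ones). The plucked and in-skin libraries of day 12 shared 20 deposited barcode sequences, of which 2 were found by the rule in both. Scrublet, a doublet caller, marked 136 of 6208 kept barcodes (2.19%), 5 of them members, and these were left in.

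The label was checked against the fibroblast markers that the rule did not use, 11 of the 15 listed, which is a description since the same barcodes were chosen on collagens. All 11 reached 20 CPM in the members, against 2 of 11 in the other kept barcodes. PDGFRA, a receptor of mesenchymal cells, stood at 605 CPM in the members and 7.05 CPM in the others, TWIST1, a mesenchymal transcription factor, at 864 and 10.6 CPM, and DCN, the proteoglycan decorin, at 2507 and 118 CPM. The fibroblast name therefore held for the members as a whole, but sub-clusters 4, 5 and 6, described further on, mixed fibroblast and mural markers. Their mural markers summed to 5192, 3250 and 3847 CPM, against 669, 279 and 291 CPM in sub-clusters 1, 2 and 3. Keratinocyte markers other than GATA3 and KRT5 summed to 516 CPM in the members and 7606 CPM in the others, with KRT75 at 0. Endothelial markers summed to 307 CPM in the members, of which EGFL7 gave 162 CPM, and to 93.0 CPM in the others. Of the 12 endothelial genes measured, 3 reached 20 CPM in the members, while KDR and TIE1 were at 0. Mural markers, the genes of pericytes and smooth muscle, summed to 1432 CPM in the members and 69.9 CPM in the others. Of the 861 members, 110 held 3 or more UMIs of the smooth muscle genes ACTA2, ACTG2, MYH11 and TAGLN.

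Barcodes just outside the collagen threshold were few and mixed in content. The 8 barcodes with a collagen sum of 4 carried 738 CPM of EPCAM, an epithelial adhesion molecule, 246 CPM of PDGFRA and 1968 CPM of the mesenchymal factor PRRX1. The 8 barcodes just inside, with a sum of 5, carried 212, 254 and 465 CPM of these genes. The medians were 822 UMIs just outside and 1295.5 UMIs just inside. These levels thus rest on few UMIs and cannot show whether PDGFRA parted the barcodes. The 18 barcodes with a sum of 3 carried 1337, 50.1 and 184 CPM. At the other threshold, the 42 members with 2 UMIs of GATA3 and KRT5 held 210 CPM of EPCAM and 508 CPM of DSP, the desmosome protein desmoplakin, and the 7 barcodes with 3 UMIs held 279 and 1096 CPM.

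Against all other kept barcodes, the members were rich in matrix genes and poor in genes of stratified epithelium. Past 2-fold (a log2 ratio of at least 1 in size, with 10 CPM added to both sides, among genes with at least 50 CPM on either side), 810 of 4157 genes were higher (19.5%) and 489 lower (11.8%), or 1299 in all (31.2%). Scaled by TMM instead, the counts were 731 and 664, with the median gene moving from a log2 ratio of -0.07 to -0.28. The rule chose on this contrast, so the counts are a description. The highest ratio beyond the rule genes was that of COL3A1, a fibrillar collagen of soft tissue, at 2117 CPM in the members and 19.6 CPM elsewhere. NID1, which links laminin and collagen IV in basement membranes, followed at 1561 and 15.9 CPM, and CDH11, the mesenchymal cadherin, at 1448 and 16.2 CPM. DIO2, the enzyme that turns thyroxine into active thyroid hormone, stood at 956 and 11.6 CPM, and FSTL1, a secreted BMP antagonist, at 4254 and 75.3 CPM. At the other end stood EPCAM, at 84.4 CPM in the members and 1788 CPM elsewhere, and DSP, at 172 and 3297 CPM. Of the listed genes that could be tested, 32 of 33 matrix glycoproteins and proteoglycans and 8 of 8 matrix proteases and inhibitors were higher past 2-fold. So were 14 of 14 genes known from dermal papilla or pulp. The limit of 50 CPM can be passed through the members alone, and listed genes below it on both sides were not counted. These shares therefore lean high by construction.

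The genes of the rule itself were unevenly spread among the members. COL1A1 was found in 860 of 861 members, at 5362 CPM. The collagen sum had a median of 35 UMIs and ran from 5 to 237. ALDH1A3, which makes retinoic acid, had a UMI in 350 members, and CALB2, the calcium-binding protein calretinin, in 254, with 187 holding both. SFRP1, a secreted WNT inhibitor, had a UMI in 413 members and F10, the clotting protease factor X, in 532, with 346 holding both. Combinations across the pairs were fewer. These counts also depend on how widely each gene was found, with F10 in 532 members but CALB2 in 254. CALB2 was held with SFRP1 by 90 members and with F10 by 135. ALDH1A3 was held with SFRP1 by 96 members and with F10 by 172. Since F10 was more widely found than CALB2, the 172 cannot be set directly against the 187 with ALDH1A3 and CALB2.

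The members were split by the larger of ALDH1A3 plus CALB2 and SFRP1 plus F10. The ALDH1A3/CALB2 side took 324 members and the SFRP1/F10 side 413, which puts 44.0% of the assigned members on the ALDH1A3/CALB2 side (exact 95% interval 40.3 to 47.6). The other 124 members stayed unassigned, 100 with neither pair detected and 24 with equal sums. The lead was 5 UMIs or more in 469 members and 1 UMI in 82, and 255 members (29.6%) had UMIs of both pairs. Epithelial barcodes are here kept barcodes with at least 3 UMIs summed over GATA3 and KRT5 and no UMI of the rule's collagens. That choice leaves out epithelial barcodes that hold collagen RNA, so their shares are not a background level of free RNA. Of 3005 such barcodes, which are deeper, 1.86% had a UMI of ALDH1A3, 5.09% of CALB2, 2.26% of SFRP1 and 0.732% of F10. The part of free RNA and doublets in the members with both pairs was not tested.

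**Figure D1:**
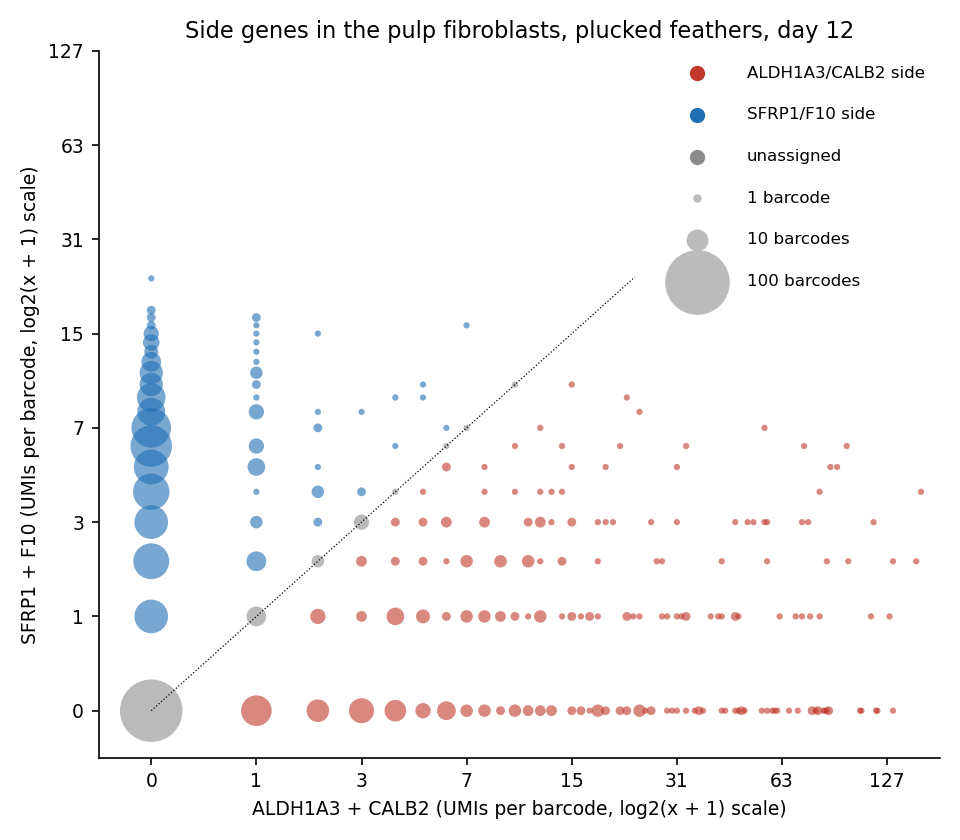
UMIs per member of ALDH1A3 plus CALB2 (horizontal) and of SFRP1 plus F10 (vertical), both on a log2(x + 1) scale. Each disc is a combination of sums, with its area giving the number of barcodes, coloured red for the ALDH1A3/CALB2 side, blue for the SFRP1/F10 side and grey for the 124 unassigned members. Of the 861 members, 255 lie off both axes.

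The sides differed in depth and in the handling signs of their cells as well as in identity genes. The median was 5659 UMIs and 5.4% mitochondrial UMIs on the ALDH1A3/CALB2 side, against 3807 UMIs and 3.86% on the SFRP1/F10 side. Of 15 tested genes known to respond to dissociation, 4 were higher past 2-fold on the SFRP1/F10 side and none on the other: HSPB1, FOSB, JUN and NR4A3. TMM scaling left 3 of them and median-of-ratios scaling 2, HSPB1 and FOSB. JUN, lost under the latter, stood at 1926 CPM on the ALDH1A3/CALB2 side and 4116 CPM on the SFRP1/F10 side. Under a mitochondrial limit of 5% the ALDH1A3/CALB2 share of assigned members was 27.7%. The part of depth and handling in the gene differences below was not tested. Mural markers summed to 743 and 695 CPM on the 2 sides, and keratinocyte markers other than GATA3 and KRT5 to 477 and 595 CPM. Even sums did not mean an even spread of mural-rich members. Sub-cluster 4, described further on, gave 23 members to the ALDH1A3/CALB2 side and 5 to the other. Its COL4A1 level, 7223 CPM, enters the COL4A1 levels of the sides given below.

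Over all genes tested, 204 of 3860 were higher past 2-fold on the ALDH1A3/CALB2 side (5.28%) and 228 on the SFRP1/F10 side (5.91%), or 432 in all (11.2%), the 4 split genes left out. TMM scaling gave 232 and 193, and median-of-ratios scaling 242 and 173, with the median gene moving from -0.06 to 0.02 and 0.05. Cell cycle genes (0 of 11 past 2-fold, median -0.04), HOX genes (0 of 8, median 0.15) and fibrillar collagens (0 of 3, median 0.44) did not part the sides by 2-fold under any of these scalings.

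Retinoid genes leaned to the ALDH1A3/CALB2 side, which was defined by 1 of their number. Beyond ALDH1A3, 4 of 8 tested genes of retinoid synthesis, binding and breakdown were higher there past 2-fold and none lower, with a median log2 ratio of 0.93 against -0.06 for all genes. ALDH1A2, another retinoic acid synthase, stood at 365 CPM on the ALDH1A3/CALB2 side and 25.2 CPM on the SFRP1/F10 side (log2 ratio 3.41, interval 2.97 to 3.85). The carriers CRABP2 (161 and 25.8 CPM) and RBP5 (208 and 39.1 CPM) and STRA6, the cell surface receptor for retinol carrier protein (108 and 41.6 CPM), followed the same direction. The other 4 tested genes were within 2-fold. CYP26B1, which breaks retinoic acid down, was below the limit for testing, at 8.51 and 25.2 CPM, and CYP26A1 had 1 UMI in all members.

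ALDH1A2 was not equally split in each library. In feathers in skin it stood at 40.3 CPM on the ALDH1A3/CALB2 side and 3.66 CPM on the SFRP1/F10 side, in the nuclei of day 13 at 396 and 117 CPM, and in those of day 14 at 191 and 156 CPM. The gap was wide in the day 12 cells and lay within the counting intervals in the nuclei of day 14 (log2 ratio 0.27, interval -0.43 to 0.98).

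The 3 highest ratios on the ALDH1A3/CALB2 side, beyond the split genes, were those of CALB1, ITIH5 and CATHB1. CALB1, the calbindin related to calretinin, gave 514 UMIs on that side and 1 UMI on the other (log2 ratio 4.83, interval 4.36 to 5.03). Those UMIs came from 47 members, with 15.9% from a single barcode, so CALB1 marked a minority. ITIH5, a protein that binds hyaluronan-rich matrix, stood at 460 and 20.2 CPM, and CATHB1, a cathelicidin, which is a host defence peptide, at 472 and 32.8 CPM. ITIH5 kept this order in every library, at 48.5 and 17.8 CPM in feathers in skin, 201 and 17.3 CPM at day 13 and 124 and 9.74 CPM at day 14. On the SFRP1/F10 sides of the nuclei 1 UMI stood for 4.32 CPM at day 13 and 3.25 CPM at day 14. The low ITIH5 levels there thus rest on few UMIs. DIO2 also kept its order, with 1561 and 360 CPM in plucked feathers of day 12 and 253 and 63.9 CPM in feathers in skin. At day 13 DIO2 stood at 459 and 108 CPM and at day 14 at 310 and 45.5 CPM.

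Depth was evened by thinning each barcode to 1000 UMIs, which left out 15 members. DIO2 then had a UMI in 62.5% of the ALDH1A3/CALB2 side, 19% of the SFRP1/F10 side and 0.335% of 2986 epithelial barcodes. Before thinning the shares were 94.4%, 39.7% and 3.16%, with a median of 10766 UMIs in the epithelial barcodes. HHIP, the membrane protein that binds and holds back hedgehog ligands, was found in 38.4%, 6.83% and 0.201%, in that order (79.0%, 21.8% and 3.0% before thinning). On the SFRP1/F10 side the shares of both genes were lower, and above those of the epithelial barcodes. Since the epithelial barcodes were chosen to hold no collagen UMI, their shares do not measure free RNA.

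Collagen and basement membrane genes were not equally split. Fibrillar collagens were within 2-fold, with COL3A1 at 2691 and 1534 CPM and COL5A1 at 1687 and 1244 CPM, both higher on the ALDH1A3/CALB2 side. Basement membrane genes were higher on the ALDH1A3/CALB2 side in 3 of 6 tested (LAMA4, LAMB1 and LAMC1) and lower in 1 (LAMB2), with 4 higher under TMM, and their median was 1.15. LAMA4, a laminin chain of vessels and mesenchyme, stood at 930 and 203 CPM, and LAMB2 at 20.4 and 59.2 CPM. Of the other collagens, 4 of 7 were higher there: the network-forming COL4A1 (2021 and 588 CPM) and COL4A2 (581 and 164 CPM), the membrane-bound COL13A1 (178 and 69.3 CPM) and COL26A1 (164 and 63.6 CPM).

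Among matrix glycoproteins and proteoglycans 10 of 33 were higher on the ALDH1A3/CALB2 side and 6 on the SFRP1/F10 side. VCAN, the large proteoglycan versican, which is known from dermal papillae, stood at 3618 and 1230 CPM, HAPLN1, which ties such proteoglycans to hyaluronan, at 1182 and 251 CPM, and FBLN1, fibulin-1, at 807 and 142 CPM. In the opposite order stood TNC, tenascin-C, at 51.7 and 256 CPM, SPON1, spondin-1, at 10.2 and 172 CPM, and FBN1, the microfibril protein fibrillin-1, at 237 and 525 CPM, a call lost under median-of-ratios scaling. Other microfibril genes did not follow FBN1: FBN2 was within 2-fold (128 and 107 CPM), and LTBP2 was higher on the ALDH1A3/CALB2 side (170 and 51.0 CPM).

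WNT genes did not move as a group. WNT11, a ligand of non-canonical WNT signalling, stood at 719 and 166 CPM (log2 ratio 2.05, interval 1.81 to 2.30), while WNT5A, of the same kind, stood at 741 and 589 CPM. Of 14 tested receptors, inhibitors and response genes, 2 were higher on the ALDH1A3/CALB2 side, 1 lower and 11 within 2-fold, and TMM added 1 higher. The 2 were TCF7, a transcription factor of the WNT response (330 and 112 CPM), and WIF1, a secreted inhibitor (621 and 258 CPM). NKD1, an inhibitor that WNT signalling itself induces, was the lower gene, at 212 and 479 CPM. AXIN2, the standard target gene, was close to even, at 164 and 144 CPM. WNT11 held its order in feathers in skin (411 and 146 CPM), at day 13 (493 and 108 CPM) and at day 14 (433 and 90.9 CPM), while WIF1 was even in feathers in skin (90.1 and 84.2 CPM).

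Hedgehog receptors and effectors parted in both directions, with 1 of 7 higher on the ALDH1A3/CALB2 side and 2 lower, of which 1 remained lower under TMM. The higher gene was HHIP, at 621 and 98.9 CPM. The lower ones were BOC, a hedgehog co-receptor (17.0 and 91.4 CPM), and GLI2, a transcription factor of the pathway (124 and 258 CPM). PTCH1, the receptor and target gene, stood at 129 and 76.2 CPM, within 2-fold. The ligand SHH, made by feather epithelium, had a UMI in 0.827% of members thinned to 1000 UMIs and in 7.20% of epithelial barcodes (4.76% and 18.2% before thinning). HHIP was higher on the ALDH1A3/CALB2 side in the other plucked libraries too, at 2947 and 505 CPM at day 13 and at 1379 and 107 CPM at day 14, but stood at 33.1 and 48.7 CPM in feathers in skin.

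BMP and TGF-beta genes were divided between the sides. Of 26 tested, 3 were higher on the ALDH1A3/CALB2 side (INHBA, BMP2 and FSTL1) and 4 on the SFRP1/F10 side (SOSTDC1, BMP4, GREM1 and BMP7), with a median of -0.08. Median-of-ratios scaling left 2 of the 4, SOSTDC1 and BMP4. INHBA, the chain of activin A, stood at 153 and 17.6 CPM, and BMP2 at 64.7 and 18.9 CPM. BMP4 stood at 148 and 491 CPM (log2 ratio -1.66, interval -1.93 to -1.40), and GREM1, the BMP antagonist gremlin, at 63 and 147 CPM.

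SOSTDC1, a secreted protein that holds back BMP and WNT signals, was among the sharpest marks of the SFRP1/F10 side. It had 180 UMIs, or 102 CPM, on the ALDH1A3/CALB2 side and 2050 UMIs, or 1292 CPM, on the SFRP1/F10 side (log2 ratio -3.54, interval -3.80 to -3.28). Thinned to 1000 UMIs it was found in 8.12% and 58.3% of the sides, and in 1.77% of epithelial barcodes (30.2%, 83.5% and 16.6% before thinning). The order held in feathers in skin (58.7 and 535 CPM), at day 13 (23.8 and 73.4 CPM) and at day 14 (31 and 104 CPM), at lower levels in the nuclei.

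The lowest ratios also named RIMS2 (6.81 and 195 CPM) and PCLO, proteins of the presynaptic active zone in neurons, FAT3, a giant cadherin (10.8 and 239 CPM), IL31RA, a cytokine receptor (5.11 and 140 CPM), RGS2, which damps G protein signals (22.1 and 290 CPM), and MEF2C, a transcription factor (6.25 and 132 CPM). NCAM1, the neural cell adhesion molecule, which is known from feather mesenchyme, stood at 67.0 and 585 CPM (log2 ratio -2.95, interval -3.27 to -2.63). Neuronal markers, for comparison, summed to 128 and 157 CPM on the sides, led by SYT1, another presynaptic gene. NCAM1 kept its order at 169 and 720 CPM in feathers in skin, 83.3 and 272 CPM at day 13 and 114 and 516 CPM at day 14.

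Transcription factors leaned to the SFRP1/F10 side. Of 23 mesenchymal factors tested, 9 were higher there past 2-fold and 1 on the ALDH1A3/CALB2 side, with a median of -0.76, and median-of-ratios scaling left 7 of the 9. The nuclear factor I genes gave NFIB 27.3 and 197 CPM, NFIA 85.2 and 475 CPM and NFIX 66.4 and 306 CPM. ZEB2, a repressor of epithelial genes, stood at 441 and 1476 CPM, PRRX1, a homeobox factor of limb and skin mesenchyme, at 704 and 1873 CPM, EBF1 at 62.5 and 209 CPM and SOX18 at 320 and 703 CPM. The factor in the other direction was SNAI1, at 60.7 and 22.7 CPM. TWIST1 was within 2-fold, at 636 and 1218 CPM.

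The nuclear factor I genes did not split feathers in skin. NFIB stood at 500 CPM on the ALDH1A3/CALB2 side and 350 CPM on the SFRP1/F10 side there, NFIA at 458 and 466 CPM and NFIX at 242 and 273 CPM. In the nuclei NFIA was again lower on the ALDH1A3/CALB2 side, at 1042 and 2393 CPM at day 13 and at 1403 and 2883 CPM at day 14. NFIB was lower there at day 13 (233 and 497 CPM) and even at day 14 (338 and 325 CPM). PRRX1 (543 and 1281 CPM) and SOX18 (75.7 and 310 CPM) did split feathers in skin.

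**Figure D2:**
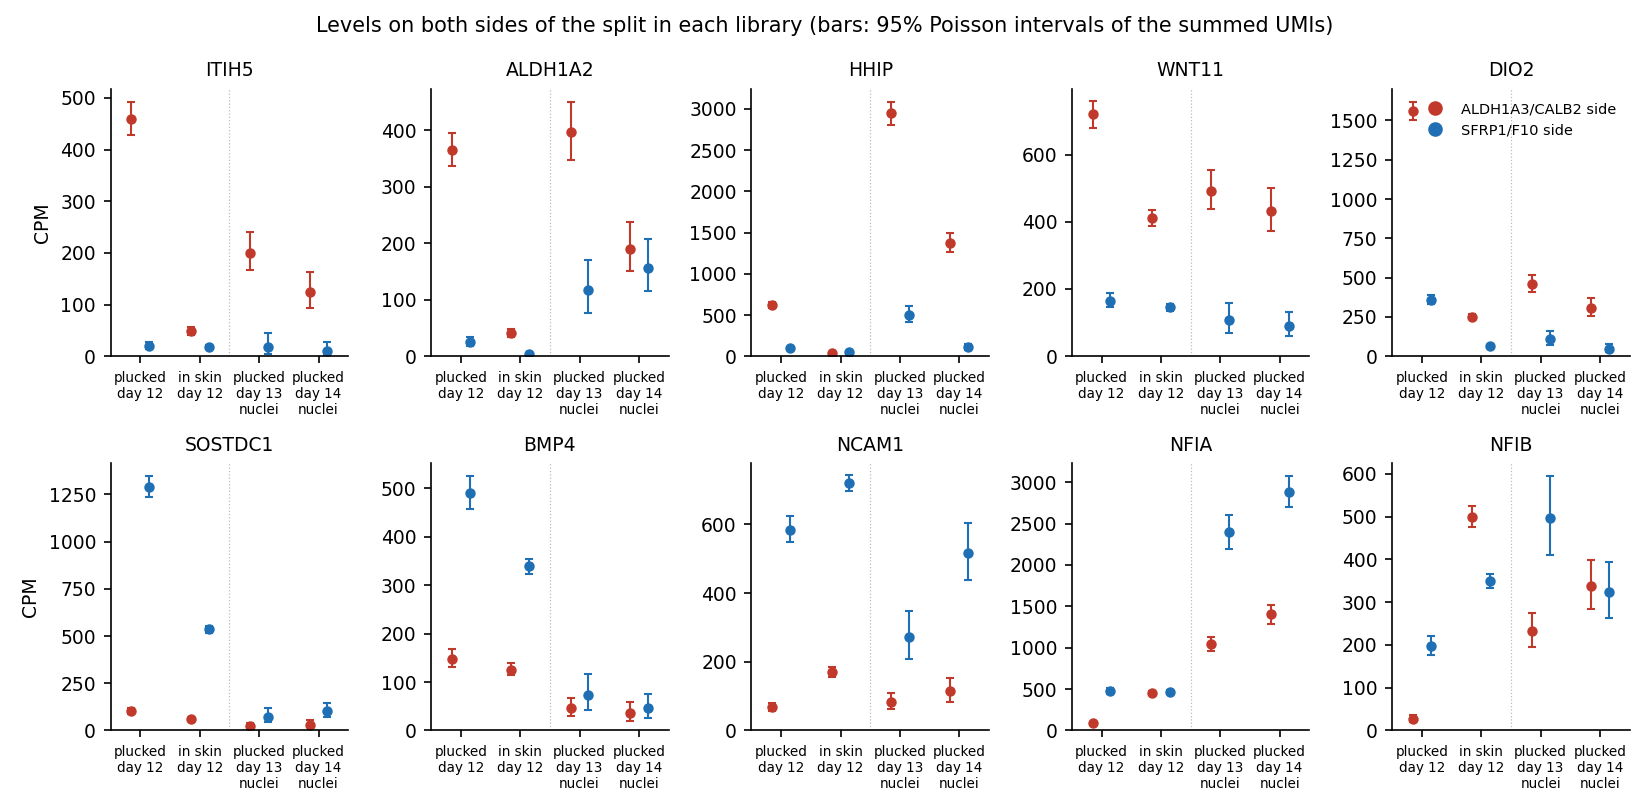
Levels of 10 genes in CPM on the ALDH1A3/CALB2 side (red) and the SFRP1/F10 side (blue) of the barcodes found by the rule in each of the 4 libraries; bars are 95% Poisson intervals of the summed UMIs, and each panel starts at 0. ITIH5, WNT11, DIO2, SOSTDC1 and NCAM1 keep their order in all 4 libraries, while HHIP, NFIA and NFIB do not part the sides in feathers in skin as they do in plucked feathers of day 12.

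Vessel and nerve guidance signals were split between the sides. Of 33 tested, 8 were higher on the ALDH1A3/CALB2 side and 5 on the SFRP1/F10 side (9 and 3 under TMM). The first were the growth factors VEGFD (95.4 and 6.30 CPM), IGF2 (165 and 27.7 CPM), HGF (77.2 and 15.1 CPM) and PTN, pleiotrophin (1238 and 371 CPM), ANGPT2, a vessel factor and mural marker, and the guidance genes NTN1, a netrin (78.9 and 29.0 CPM), SEMA3G, a semaphorin (103 and 37.8 CPM), and NRP2, a semaphorin co-receptor (60.7 and 22.7 CPM). The second were also guidance genes: PLXNA4, a semaphorin receptor (28.4 and 158 CPM), ROBO2, a SLIT receptor (31.2 and 169 CPM), ROBO1, EFNA5 and SLIT2, with ROBO1 and SLIT2 lost under TMM. ANGPT2 had 678 UMIs in the mural-rich sub-cluster 4, described further on. It had 0 and 2 UMIs in sub-clusters 2 and 3, where most of the ALDH1A3/CALB2 side lay. VEGFA, the main vessel growth factor, was even, at 109 and 120 CPM. Of 8 FGF genes only FGF7, a growth factor for keratinocytes, passed 2-fold, at 55.6 and 175 CPM, and of 7 Notch genes only DLL4, at 5.68 and 51.7 CPM.

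The side genes were then read in libraries that played no part in choosing the 861 members. In feathers in skin, the same rule and split gave 435 and 957 barcodes, with 916 unassigned, and 60 of 2820 genes tested were higher past 2-fold on the ALDH1A3/CALB2 side (2.13%) and 130 on the other (4.61%). Of the 432 side genes, 215 could be tested there, and 196 of these had the same direction (91.2%), against 1859 of 2586 genes tested in both libraries (71.9%). Of the 204 genes higher on the ALDH1A3/CALB2 side only 72 could be tested, 68 with the same direction. On the SFRP1/F10 side 143 of 228 could be tested, 128 with the same direction. Most ALDH1A3/CALB2 side genes were therefore not read in feathers in skin. The size was smaller: 80 of the 215 passed 2-fold in the same direction (37.2%), 19 on the ALDH1A3/CALB2 side and 61 on the other. Over all genes tested in both libraries 130 of 2586 did so (5.03%). Among the 215 side genes FIBIN alone passed 2-fold in the opposite direction. The median lead of the winning pair was 2 UMIs in feathers in skin, against 8.5 and 6 UMIs on the sides of the plucked library. The SFRP1/F10 side of feathers in skin also carried mural markers, at a sum of 5231 CPM against 694 CPM. Without barcodes of 3 or more UMIs of those smooth muscle genes the share with the same direction was 90.3%, or 224 of 248. The share over all genes in that setting is not given here, so the 90.3% has no background beside it.

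In the nuclei of day 13 the split gave 195 and 82 barcodes, with 7.63% and 6.34% of 4638 genes past 2-fold in the 2 directions, and 255 of 297 side genes kept their direction (85.9%, against 62.2% of all genes tested in both). In those of day 14 it gave 99 and 87 barcodes, with 9.56% and 9.35% of 4394 genes, and 250 of 293 kept it (85.3%, against 65.4%). In the nuclei 456 of 733 barcodes were unassigned at day 13 and 344 of 530 at day 14. The median lead was 3 UMIs on the ALDH1A3/CALB2 sides and 1 UMI on the SFRP1/F10 sides. A lead of 1 UMI decided 128 and 90 barcodes. SFRP1 was found in 19 and 21 barcodes, against 118 and 87 for F10. The SFRP1/F10 sides of the nuclei thus rest largely on F10, often at a lead of 1 UMI. Of these side genes, 3 passed 2-fold in the opposite direction at day 13 and 6 at day 14. SLIT2 was among them on both days, at 962 and 419 CPM at day 13 and 743 and 292 CPM at day 14. ANGPT2, an angiopoietin, was among them at day 14, at 9.52 and 97.4 CPM, against 160 and 28.4 CPM in the day 12 cells. Its UMIs in the day 12 members lay mainly in sub-clusters 4 and 5 (678 and 145 UMIs), described further on, which are rich in mural markers. The part of such barcodes in the turn of ANGPT2 was not tested. The change from cells to nuclei cannot be told apart from the change of age.

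**Figure D3:**
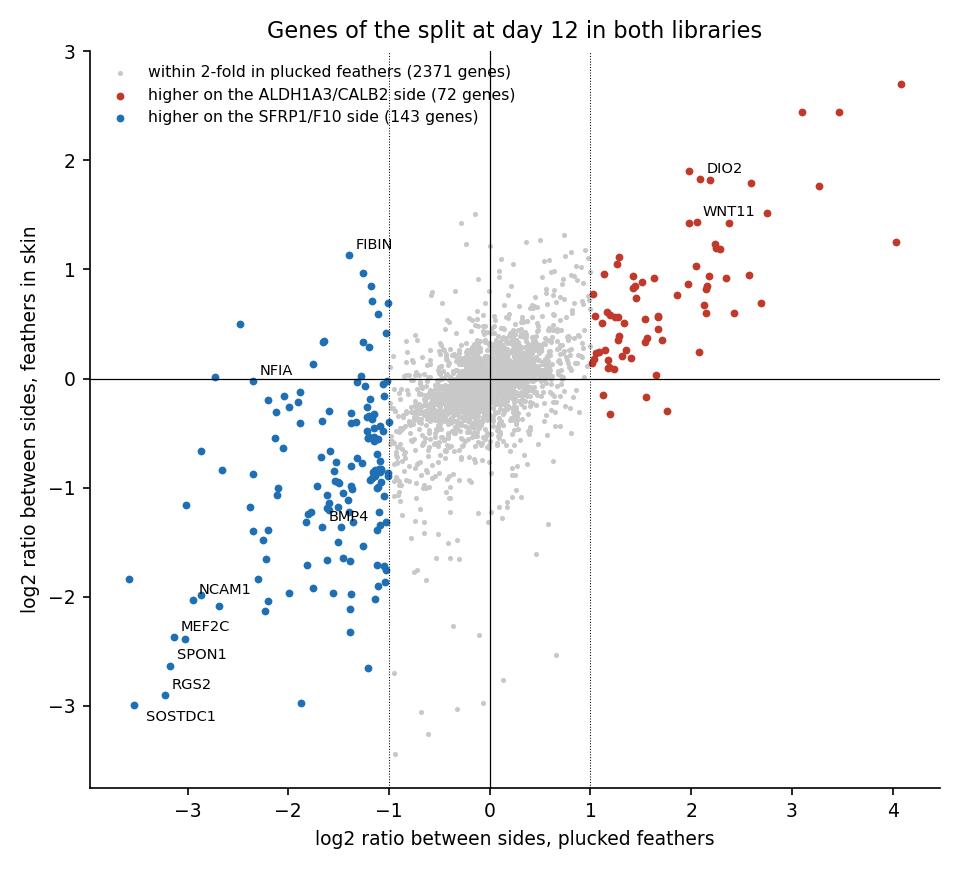
Log2 ratio between the ALDH1A3/CALB2 and SFRP1/F10 sides for 2586 genes tested in both day 12 libraries, with plucked feathers on the horizontal and feathers in skin on the vertical axis. Red and blue points are the 215 genes past 2-fold (dotted lines) in plucked feathers, of which 196 lie on the same side of 0 in both.

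Clustered on their own, with the genes of the rule left out, the members fell into 6 sub-clusters, and 653 of the 737 assigned members (88.6%, exact 95% interval 86.1 to 90.8) were in a sub-cluster led by their own side. The leading side was read from the same barcodes, so this share cannot fall below that of the larger side, 413 of 737. The genes that define a sub-cluster are a description. Sub-cluster 1, with 344 members (40.0%), held 324 of the SFRP1/F10 side and was led by RIMS2, RGS2, SPON1, IL31RA, FAT3 and SOSTDC1. Its barcodes were also the shallowest, at a median of 3628.5 UMIs.

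The ALDH1A3/CALB2 side fell mainly into sub-clusters 2 and 3, which both held ALDH1A3 and CALB2, with CALB2 far lower in sub-cluster 3. Sub-cluster 2, with 206 members, held 189 of that side and was led by ITIH5 and CYTL1. Sub-cluster 3, with 149 members, held 83 of that side and 50 of the other, and was led by CATHB1, CALB1 and GSTA4. ALDH1A3 stood at 1207 CPM in sub-cluster 2 and 726 CPM in sub-cluster 3, but CALB2 at 4710 and 261 CPM. WIF1 (967 and 159 CPM) and HHIP (808 and 329 CPM) went with CALB2. CALB1 (148 and 472 CPM), CATHB1 (67.8 and 1098 CPM), PTN (516 and 2763 CPM) and POMC, the precursor of melanocyte-stimulating hormone and other peptides (62.4 and 438 CPM), went the other way. The CALB1 level of sub-cluster 3 came from 21 of its 149 barcodes, with 25.4% of the UMIs from 1 of them. Its CATHB1 level came from 53 barcodes, with 12.1% of the UMIs from 1 of them. Sub-cluster 3 also kept intermediate levels of the opposite pair, with SFRP1 at 229 CPM and F10 at 391 CPM, against 565 and 1248 CPM in sub-cluster 1.

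Sub-cluster 4, with 84 members (9.76%), mixed mural with fibroblast markers. Its PDGFRA level and most of its mural genes, given below, went against the fibroblast label. Its fibroblast markers summed to 15589 CPM, against 16800 CPM in sub-cluster 3. That sum includes the rule's collagens, which chose the barcodes, so it is no check of the label. DCN stood at 1521 CPM, PRRX1 at 1114 CPM and TWIST1 at 369 CPM. The mural genes MYH11 (1.92 CPM) and CNN1 (9.60 CPM) were low, but other genes of the mural list were not. ABCC9 stood at 290 CPM, against 5.07, 10.9 and 10.2 CPM in sub-clusters 1, 2 and 3. RGS5 stood at 80.7 CPM, against 8.45, 0 and 27.7 CPM, and MYL9 at 636 CPM, against 225, 166 and 118 CPM. PDGFRB was also higher than in sub-clusters 1, 2 and 3, while DES was below its level in sub-cluster 3 (44.2 and 54.0 CPM). Sub-cluster 4 was led by ANGPT2, ANO1 and EPAS1, with the mural markers ANGPT2 and KCNJ8 among its 10 leading genes. PDGFRA stood at 5.76 CPM there, against 529, 1059 and 688 CPM in sub-clusters 1, 2 and 3. ACTA2, the smooth muscle actin, stood at 1786 CPM, KCNJ8, a potassium channel of pericytes, at 450 CPM and COL4A1 at 7223 CPM. Its mural markers summed to 5192 CPM against 669, 279 and 291 CPM. The rule's collagens, with COL1A1 at 3873 CPM among them, brought the barcodes within the rule. Of its members 56 were unassigned, 23 of the ALDH1A3/CALB2 side and 5 of the other. ALDH1A3 was present at 113 CPM and DIO2 at 1012 CPM, but CALB2 at 3.84 CPM and F10 at 9.60 CPM.

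The 2 remaining sub-clusters were small. Sub-cluster 5, with 53 members, was led by genes of mitosis (KPNA2, CENPE and ASPM), with TOP2A, which untangles DNA in dividing cells, at 1334 CPM against 42.5 to 147 CPM elsewhere, and it drew on both sides (22 and 14). Its mural markers summed to 3250 CPM. PMEL, a pigment granule protein, was among its 10 leading genes, with 99.4% of its 160 UMIs from 1 barcode, and melanocyte markers summed to 861 CPM there against 17.3 to 138 CPM in the others. Sub-cluster 6, with 25 members, was led by MYH11, TNMD and POSTN. Its mural markers summed to 3847 CPM, of which MYH11 gave 1565 CPM. MYH11 had UMIs in 7 of the 25 barcodes, with 38.9% of its 203 UMIs from 1 barcode. POSTN, periostin, stood at 4972 CPM there and at most 622 CPM in the others, and TNMD, tenomodulin, a gene of tendon and dense connective tissue, at 516 CPM and at most 13.2 CPM. Sub-cluster 6 had 0 UMIs of WIF1 and DIO2.

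**Figure D4:**
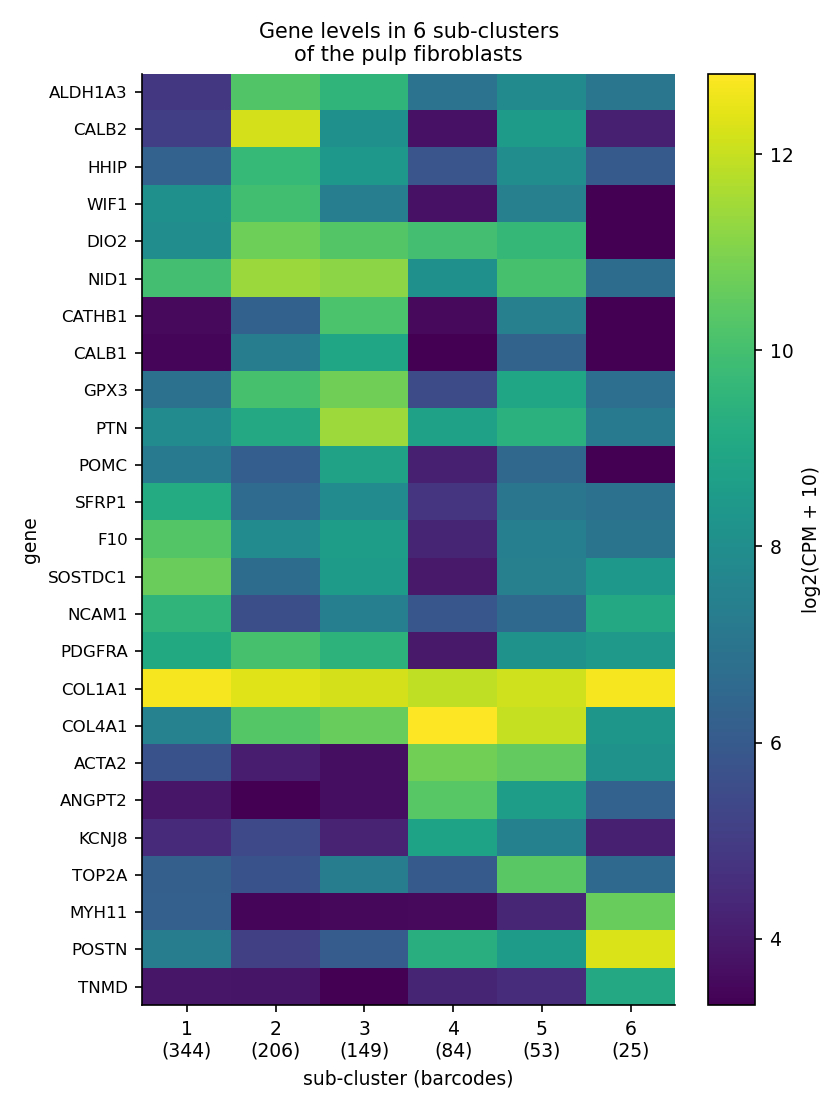
Levels of 25 genes, as log2(CPM + 10), in the 6 sub-clusters of the 861 members, with the number of barcodes of each below its name. CALB2 and WIF1 peak in sub-cluster 2 and CATHB1, CALB1 (from 21 of 149 barcodes) and PTN in sub-cluster 3, SFRP1, F10 and SOSTDC1 peak in sub-cluster 1, and sub-cluster 4 pairs ACTA2, ANGPT2 and KCNJ8 with a PDGFRA level of 5.76 CPM.

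The last comparison set the members against the 2308 barcodes of the same rule in feathers in skin, a sample that also holds the skin around the feathers. Of 3652 genes tested, 717 were higher past 2-fold in plucked feathers (19.6%) and 124 lower (3.4%), or 841 in all (23%), with a median of 0.34. This split depended on scaling: under TMM it was 293 and 469, and under median-of-ratios scaling 291 and 472, with a median of -0.22, so a gene within about that shift has no settled direction. The libraries also differed in W-linked transcripts, with HINTW found in 853 of 861 members of the plucked library and at 1 UMI over all barcodes of the rule in feathers in skin. The 138 tested genes of chromosome Z had a median of -0.16 against 0.35 for autosomal genes. How far the embryos' sex, library or tissue made the differences cannot be told apart. In 625 of 2308 in-skin barcodes (27.1%) there were 3 or more UMIs of the smooth muscle genes, against 12.8% of members.

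Basement membrane genes were higher in the plucked feathers, in 4 of 5 tested under every scaling, with a median of 2.79, or 2.20 under TMM. NID1 stood at 1561 CPM in the members and 79.6 CPM in the in-skin barcodes, LAMC1 at 369 and 32.3 CPM, LAMA4 at 622 and 81.6 CPM and LAMB1 at 974 and 265 CPM. After thinning to 1000 UMIs, 64.1% of members and 7.15% of in-skin barcodes had a UMI of NID1 (87.1% and 26.9% before thinning), against 0.301% of epithelial barcodes of the plucked library. On the ALDH1A3/CALB2 sides NID1 stood at 2254 and 110 CPM and on the SFRP1/F10 sides at 1177 and 109 CPM, so the gap was present on both. COL4A1 (1998 and 268 CPM) and COL4A2 (572 and 41.6 CPM) went the same way, while COL3A1 (2117 and 1947 CPM) was close to even and COL1A1 (5362 and 11305 CPM) lower. Most COL4A1 UMIs of the members lay in the mural-rich sub-clusters 4 and 5 (3760 and 1532 UMIs), against 209, 1395 and 1064 UMIs in sub-clusters 1, 2 and 3. NID1 did not share this spread, at 261 CPM in sub-cluster 4 and 2680 CPM in sub-cluster 2.

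The lowest ratios in the plucked feathers included those of TNMD, CHODL and POSTN. TNMD stood at 22 CPM in the members and 712 CPM in the in-skin barcodes, CHODL, a lectin, at 3.0 and 153 CPM, and POSTN at 339 and 2784 CPM. Among the members, the 25 barcodes of sub-cluster 6 held 67 UMIs of TNMD and 645 UMIs of POSTN. No other sub-cluster held more than 6 and 324 UMIs of these genes. COL12A1 and COL14A1, which bind the surface of collagen fibrils, stood at 397 and 822 CPM and at 47.0 and 368 CPM. CRABP-I, a retinoic acid carrier, was lower at 29.5 and 490 CPM, whereas ALDH1A2 (173 and 11 CPM), CRABP2 (84.4 and 6.85 CPM) and STRA6 (69.7 and 17.5 CPM) were higher, so retinoid genes went both ways (3 higher and 1 lower of 9 under all 3 scalings). TAGLN, MYH11 and ACTG2, genes of smooth muscle, were lower too. Without barcodes of 3 or more smooth muscle UMIs, which TAGLN itself helped to pick, its log2 ratio turned from -2.77 to 0.18.

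Of 12 tested WNT receptors, inhibitors and response genes, 8 were higher (TCF7, WIF1, LEF1, APCDD1, RSPO1, DKK3, FZD1 and NKD1) and 1 lower (SFRP2), with a median of 1.41, and TMM scaling left 5 higher and 3 lower. TCF7 stood at 201 and 24.3 CPM, LEF1, another WNT transcription factor, at 351 and 64.4 CPM, WIF1 at 387 and 57.0 CPM and APCDD1, a WNT inhibitor, at 324 and 67.9 CPM. HHIP stood at 330 and 37.0 CPM, DIO2 at 956 and 97.3 CPM, VCAN at 2225 and 347 CPM, PTN at 806 and 125 CPM and JAG1, a Notch ligand, at 188 and 21.6 CPM. Of the transcription factors, TRPS1 (788 and 106 CPM) and PRDM1 (121 and 13.4 CPM) were higher and NFIB (107 and 430 CPM) lower; under TMM the 6 higher and 3 lower of 23 became 3 and 9. PHEX, a peptidase of mineralised tissue, TFAP2C, a transcription factor, and CRISPLD1 were also among the highest, at 448 and 34.7 CPM, 176 and 7.34 CPM and 408 and 31 CPM.

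**Figure D5:**
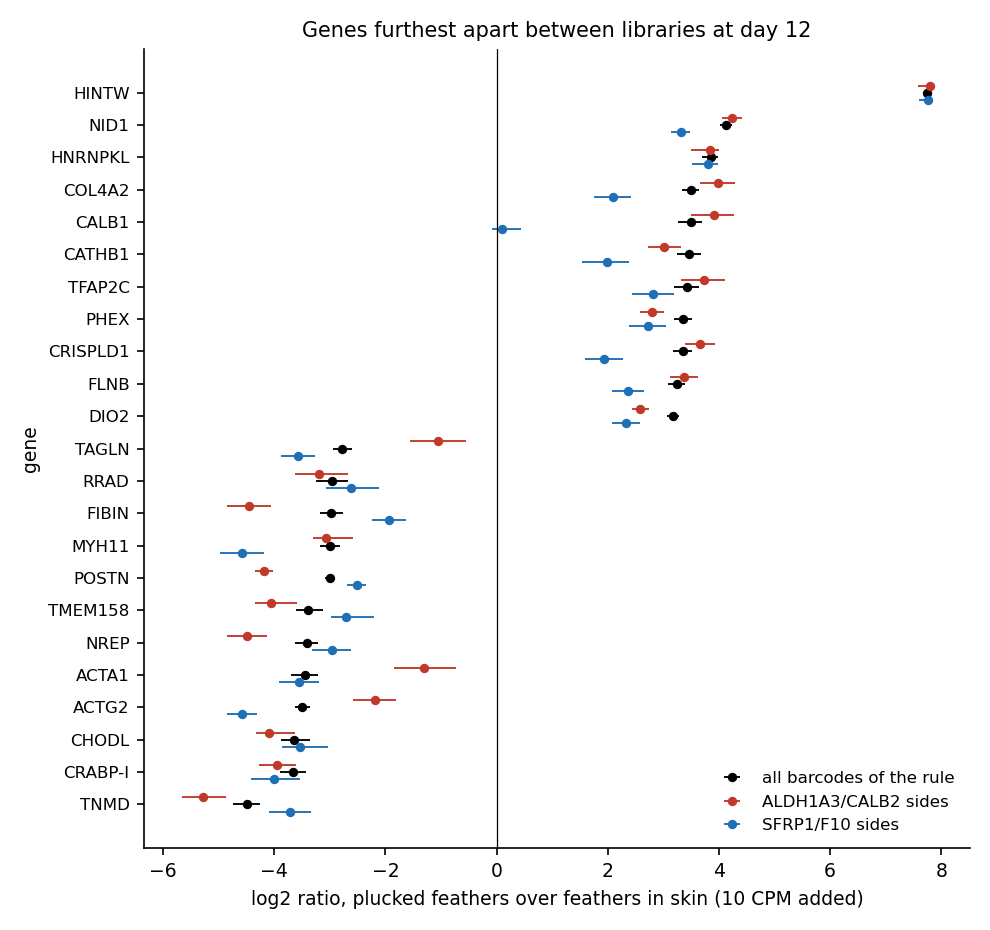
Log2 ratio of CPM in plucked feathers over feathers in skin, day 12, for 11 of the 12 genes with the highest ratio and the 12 with the lowest, over all barcodes of the rule (black) and within the ALDH1A3/CALB2 (red) and SFRP1/F10 (blue) sides; bars combine the outer ends of the 95% Poisson intervals. NID1 and DIO2 are higher and TNMD, CHODL and POSTN lower on both sides, while the CALB1 difference is on the ALDH1A3/CALB2 side.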

How the data were processed

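The deposited values are raw UMI counts per gene and barcode, made by the authors with Cell Ranger, version 3.1.0 for the day 12 cells and 7.0.0 for the nuclei per the file headers; the submitters' processing notes name Cell Ranger 7.0.0 and the build GRCg6a. All 4 libraries list the same 16878 genes, 4436 of them without a symbol. Chromosomes came from a RefSeq gene table, with no coordinates used.

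Barcodes were kept by at least 300 genes and at most 10% UMIs of 13 mitochondrial genes. Doublets were left in, and Scrublet calls were an alternative. UMIs were summed per set of barcodes and scaled to CPM without mitochondrial and globin genes. Log2 ratios had 10 CPM added, which understates low genes, and genes needed 50 CPM on either side. With 1 library a group there is no test. Poisson intervals are given for sums and Clopper-Pearson intervals for shares, at 95%, for counting error only.

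Sub-clusters came from the Leiden algorithm on 2000 variable genes, 20 principal components and 15 neighbours at resolution 0.5. Named genes are the rule's genes, the 12 highest and 12 lowest ratios of a comparison and, in each list, those past 2-fold and up to 4 others of highest level. Leading genes of sub-clusters and cell type markers are named beside them, and any other gene was chosen after its values were seen. Some genes that meet these rules are not reported here. The members and lists were chosen with earlier results of these data known. Alternatives changed the thresholds, scaling, pseudocount, depth and doublets, and the scripts were tested on simulated data. Tools were Python 3.11.15, numpy 2.4.6, scipy 1.17.1, pandas 2.3.3, scanpy 1.11.5, scikit-learn 1.9.0, leidenalg 0.10.2, python-igraph 0.11.9 and matplotlib 3.10.9.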

Additional observations from a re-analysis of the deposited data

How the results depend on the processing

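No paired analysis was possible because each group is 1 library, and for the same reason no replicate could be left out. The share of kept barcodes found by the rule, 13.9%, moved to 9.97% with no GATA3 or KRT5 UMI allowed, to 16.6% with at most 5% mitochondrial UMIs and also to 16.6% with at least 1000 genes, to 12.5% with barcodes thinned to 1000 UMIs and to 12.1% without members of 3 or more smooth muscle UMIs, an alternative chosen after seeing the data. With at most 5% mitochondrial UMIs the ALDH1A3/CALB2 share of assigned members was 27.7%, the share of side genes with the same direction in feathers in skin 82.0% (205 of 250, against 64.3% of all genes) and the share of assigned members in a sub-cluster of their own side 92.6%. That last share was also 92.6% with no GATA3 or KRT5 UMI and 92.5% at resolution 1, which made 11 sub-clusters. With no minimum level, 2201 genes passed 2-fold between members and other barcodes and 1416 between plucked and in-skin barcodes, where more genes were tested. The count between the sides ran from 405 to 647 over 16 alternatives. Of the 72 ratios at the extremes of the comparisons, 1 turned direction, TAGLN at 0.18 without barcodes of 3 or more smooth muscle UMIs, of which TAGLN is one, and CALB1, ACTG2, ACTA1, MYH11 and TAGLN went under 1 in size between plucked and in-skin barcodes in some setting. Leaving out melanocyte UMIs, thinning to 2000 UMIs and comparing libraries within a side were also chosen after seeing the data. The depth limits low genes: at a median of 4601 UMIs a gene of low level is missed in many members, so a missing UMI does not show absence, and free RNA was not removed here.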

Other observations

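The following gene groups were picked after their values were seen, and the counts are given as a description. Genes of tetrahydrobiopterin, an enzyme cofactor, stood higher on the ALDH1A3/CALB2 side. GCH1, which makes the first intermediate, stood at 198 CPM on that side and 17.6 CPM on the SFRP1/F10 side, PCBD1 and QDPR, which recycle the used cofactor, at 213 and 34.0 CPM and at 934 and 148 CPM, SPR, a reductase of its synthesis, at 77.2 and 23.3 CPM, and DNAJC12, a co-chaperone, at 469 and 82.5 CPM. PCBD2 (104 and 85.0 CPM) and PTS (26.1 and 35.9 CPM) were not parted by 2-fold. GCHFR, the feedback regulator of GCH1, was low, at 5.11 and 35.9 CPM. TH, which starts catecholamine synthesis with this cofactor, had 0 UMIs in the members, which allows up to 3 UMIs in all, and TPH1 and TPH2, which start serotonin synthesis, stood under 2 CPM. In sub-cluster 2 QDPR and DNAJC12 stood at 1460 and 666 CPM. In feathers in skin QDPR (236 and 118 CPM) and GCH1 (37.7 and 4.21 CPM) had the same order at lower levels. ASS1 and ASL2, enzymes of arginine synthesis, also stood higher on the ALDH1A3/CALB2 side, at 115 and 6.93 CPM and at 59.0 and 6.93 CPM.

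Peptide hormone genes were unevenly spread among the members. POMC stood at 142 CPM in the members and 2.27 CPM in the other kept barcodes, at 137 and 183 CPM on the sides and at 438 CPM in sub-cluster 3. PYY, a gut and brain peptide, stood at 78.3 CPM on the ALDH1A3/CALB2 side and 6.30 CPM on the SFRP1/F10 side, and PENK, proenkephalin, at 3.41 and 61.1 CPM. APLN, apelin, stood at 87.4 and 31.5 CPM. CCK, cholecystokinin, stood at 29.7 CPM in the members and 248 CPM in the in-skin barcodes of the same rule. Of the thyroid hormone genes, THRA, a receptor, stood at 90.4 CPM in the members and 39.8 CPM elsewhere and did not part the sides by 2-fold as DIO2 did, while DIO1 had 0 UMIs in the members.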
